A study of Homo sapiens with 6 samples.

Results

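The 39 core autophagy genes named for this account encode the machinery that builds an autophagosome, and 38 of them had a row among the 13117 genes of the expression table. GABARAP was not analysed here. The genes were listed by name for their known role, with earlier results of these data known, and are ordered by step. There were 6 initiation genes, 4 of nucleation, 7 PI3P effectors and lipid transfer proteins and 10 of the conjugation systems. The rest were 4 measured ATG8 members, 5 cargo receptors and 2 tethers. The cells were SNU449, an established human liver cancer line, carrying FOXO1AAA in the doxycycline-inducible vector pInducer20. FOXO1AAA is a form of the transcription factor FOXO1 whose AKT phosphorylation sites are replaced, so that AKT no longer keeps it out of the nucleus. Both groups carried the construct, their genotype is labelled WT, and whether the line is a single clone is not stated. The Cont group (3 libraries) received no doxycycline and the Dox group (3 libraries) received 2 µM doxycycline hydrochloride for 48 h, after which poly(A) RNA was sequenced. No group received doxycycline without the construct, so effects of doxycycline itself and of FOXO1AAA cannot be told apart in any result.

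Autophagy encloses part of the cytoplasm in a double membrane and delivers it to the lysosome. The ULK kinase complex starts the process, a class III PI3-kinase built around Beclin 1 then makes the lipid PI3P, and WIPI proteins bind that lipid and recruit the rest. ATG2 proteins feed lipid into the growing membrane, and 2 ubiquitin-like conjugation systems attach ATG8 proteins (LC3 and GABARAP types) to it, where cargo receptors bind. In liver cells autophagy supplies amino acids and clears damaged organelles and protein aggregates. Transcription factors of the FOXO class and TFEB are known to act on autophagy genes in several tissues, and autophagy genes are therefore read here after induction of a FOXO1 form.

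Levels are in FPKM, a fragment number scaled by transcript length and by library size, and so allow levels of different genes to be set side by side. FPKM is also relative to the whole library, and fewer cells of a kind and less RNA per cell cannot be told apart in it. A gene was called when limma's two-sided test on log2(FPKM + 1) gave a Benjamini-Hochberg adjusted p under 0.05 over the 11526 tested genes. Log2 changes are Dox minus Cont on that scale, which understates changes of low genes, and SE is limma's standard error. Separate cultures are not named in the labels, so p-values measure the spread among libraries, which may be technical.

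FOXO1 itself was at 0.741, 0.776 and 0.889 FPKM in Cont and at 2.87, 3.50 and 2.01 in Dox (log2 change 1.06, limma adjusted p = 9.84e-05). It passed the filter (FPKM 1 or more in 3 or more libraries) only through the Dox libraries, which limits what its p-value can show. How construct reads were counted is not given. The relative depth of the libraries, estimated from the steps of the lowest values, ran from 0.791 to 1.31 of their mean. Genes of the mitochondrial genome took 3.00% to 4.67% of the summed FPKM in Cont and 13.2% to 14.7% in Dox. The library totals behind the FPKM are not given, and the part of this share in the other FPKM values was not tested. Changes under other scalings are given below. Of 8 hepatocyte markers, 2 had a row, AFP and ALB, and the other 6 were not analysed here. AFP fell from 13.4 ± 5.27 to 6.21 ± 2.12 FPKM (SD, n = 3, limma adjusted p = 0.0114), with overlap between the groups. ALB was low, at 0.321 ± 0.239 in Cont and 1.19 ± 0.459 in Dox. It was higher in every Dox library than in any Cont library and was not tested. The keratin genes KRT8 and KRT18 fell, KRT8 from 65.5 ± 2.93 to 23.3 ± 1.26 FPKM (limma adjusted p = 4.97e-08) and KRT18 from 58.9 ± 2.11 to 10.3 ± 2.08 (limma adjusted p = 5.62e-08). Of 9 immune and endothelial markers, 3 had a row and none exceeded 2.38 FPKM in any library. Of 5 fibroblast markers, 3 had a row, with a summed level of 208.0 to 237.0 FPKM in Cont and 174.1 to 217.3 in Dox. That sum held opposite changes, since COL3A1 rose from 5.93 ± 0.919 to 141.8 ± 15.6 FPKM (SD, n = 3) while COL1A2 fell from 201.7 ± 13.9 to 44.5 ± 8.32 and COL1A1 from 11.0 ± 1.25 to 2.75 ± 0.671. The part of these marker changes in the autophagy results was not tested.

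The largest rises among the autophagy genes were those of WIPI1 and ATG4A, and the sequence upstream of each is shown because these 2 transcripts changed most. The stretches come from RefSeq (GRCh38.p14), run 5′ to 3′ on the gene's own strand, and end before the first annotated base of the gene. WIPI1 lies on the minus strand (chr17:68457514-68457746) and ATG4A on the plus strand (chrX:108091528-108091667).
WIPI1: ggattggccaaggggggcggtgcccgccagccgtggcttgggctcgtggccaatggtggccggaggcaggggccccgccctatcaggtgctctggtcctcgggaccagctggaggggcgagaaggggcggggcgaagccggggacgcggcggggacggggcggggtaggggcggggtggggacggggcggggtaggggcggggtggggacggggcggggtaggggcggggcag
ATG4A: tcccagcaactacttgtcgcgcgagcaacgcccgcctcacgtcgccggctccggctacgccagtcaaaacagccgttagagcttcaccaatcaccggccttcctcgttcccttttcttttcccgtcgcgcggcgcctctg
Neither stretch holds GTAAACA, a core motif of FOXO factors, or CACGTG, the E-box core that TFEB binds, on either strand. Only these exact letters were searched, and other forms of the motifs were not. Among the 250 bases before each RefSeq start, GTAAACA (or its reverse complement TGTTTAC) was present in 1 of the 41 promoter entries of the 32 measured members that have any, that of CALCOCO2, and in 2.98% of all 35116 promoter entries. CACGTG, which is its own reverse complement and does not overlap the other motif, was present in 3 of the 41, those of ATG14, ATG3 and ULK3, and in 6.34% of all entries. The windows of 30 bases around these matches are shown with the motif in capitals, to let the changes of their genes below be read beside them. They lie at chr14:55411834-55411863 (ATG14, minus strand), chr3:112561963-112561992 (ATG3, minus), chr15:74843311-74843340 (ULK3, minus) and chr17:48830798-48830827 (CALCOCO2, plus).
ATG14: aaaacaaaatccCACGTGactggctctcct
ATG3: cctttctcacgtCACGTGccgggagagtct
ULK3: cctccgtatcccCACGTGggccctgcagga
CALCOCO2: aaaaaagaaaaGTAAACAgcttcttccagg
The ATG14 and ATG3 matches end 15 and 12 bases before the RefSeq start, and those of ULK3 and CALCOCO2 end 166 and 219 bases before it. In the GENCODE annotation used for gene positions, however, the ATG14, ATG3 and ULK3 matches lie inside the gene. Those minus-strand genes begin there at 55411858 (ATG14), 112562046 (ATG3) and 74843346 (ULK3). Only the CALCOCO2 match lies upstream of the gene in both, with a GENCODE start at 48830988. The 4 genes differed in their change: ATG14 rose by 1.30 in log2, ULK3 by 0.39 and CALCOCO2 by 0.24, and ATG3 was not called at -0.14. A match of letters is a description and no measure of binding.

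Of the 38 measured autophagy genes, all passed the filter on low values. With Dox 27 rose and 10 fell, and 1, ATG3, was not called. Thus 97.4% of the members were called, where 80.4% of all tested genes were called, and 71.1% of the members rose, where 37.6% of all tested genes rose and 42.8% fell. The median log2 change of the members was 0.61 against -0.06 for all tested genes. A rise of at least 1 in log2 was called for 10 members (26.3%; 16.3% of all tested genes) and a fall of at least 1 for 1 member (2.63%; 16.6% of all tested genes). The groups were free of overlap in 37 members, 27 with Dox above (38.4% of all tested genes) and 10 with Dox below (43.7%), where 82.1% of all tested genes were free of overlap in either direction. These counts describe the set and were given no test of their own.

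**Figure D1:**
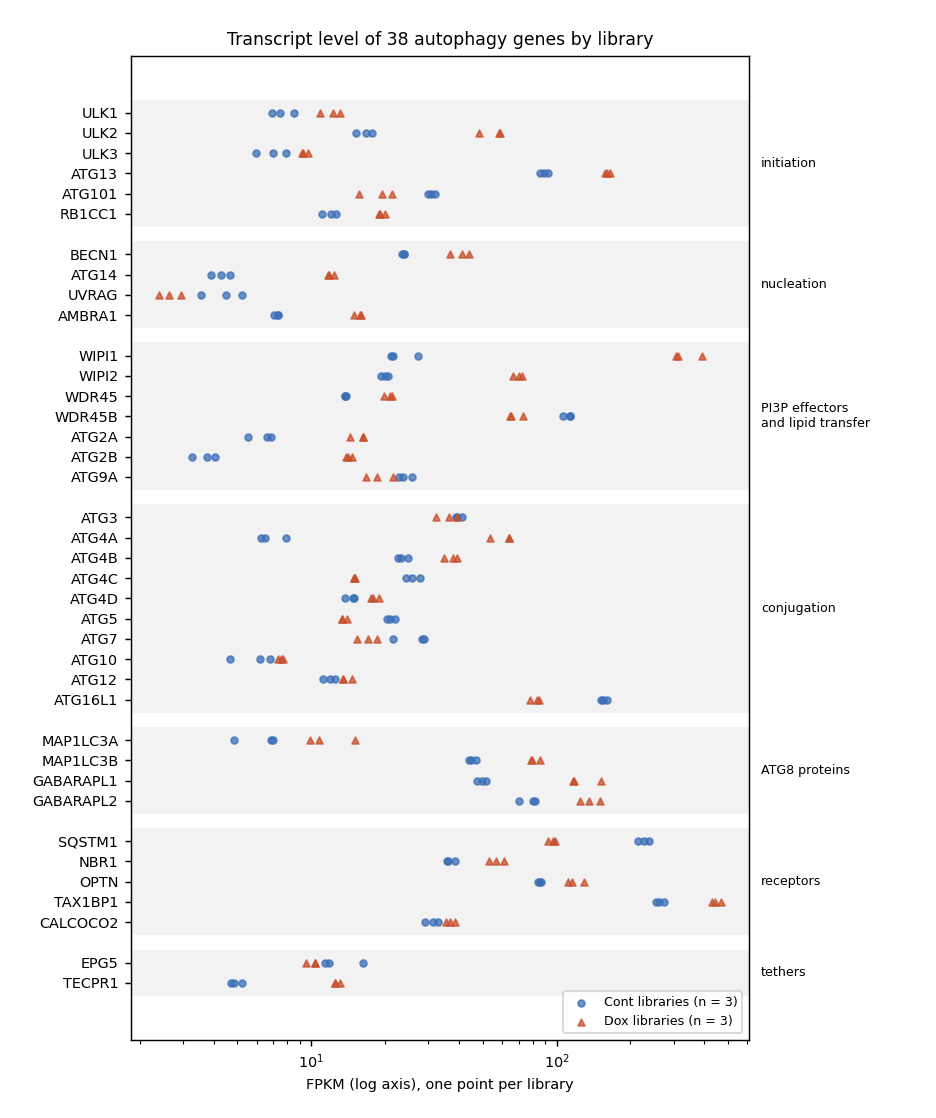
FPKM (log axis) of 38 autophagy genes, ordered by step, with one point for each of the 3 Cont and 3 Dox libraries. The groups overlap only for ATG3, and WIPI1 and ATG4A show the widest gaps.

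The ULK complex joins a kinase (ULK1 or ULK2) to the scaffold RB1CC1 (FIP200), to ATG13 and to ATG101, which stabilises ATG13. Of the 6 initiation genes 5 rose and 1, ATG101, fell, with a median log2 change of 0.63. ULK2 (chromosome 17, 19770829 to 19867936) was at 16.7, 17.7 and 15.2 FPKM in Cont and at 58.2, 58.7 and 48.5 in Dox. Every Dox library was thus far above every Cont library, with a mean 3.33-fold higher (log2 change 1.67, SE 0.09, limma adjusted p = 1.16e-07). ULK1, the other kinase of the complex, rose less, by 0.60 in log2, from 7.62 ± 0.797 to 12.1 ± 1.09 FPKM (SD, n = 3, limma adjusted p = 0.00031). ULK3, a related kinase, rose from 6.93 ± 0.969 to 9.38 ± 0.28. ATG13 reached the highest level of the complex, 160.9 ± 3.32 FPKM against 88.7 ± 3.39 in Cont (log2 change 0.85), and RB1CC1 rose by 0.65 in log2. ATG101 went the other way, from 30.9 ± 0.987 to 18.8 ± 2.98 FPKM (log2 change -0.70, limma adjusted p = 0.000179). The genes of this complex, whose proteins work together, therefore did not move in 1 direction.

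Nucleation depends on the class III PI3-kinase. Beclin 1 (BECN1) is its regulatory core, ATG14 directs the complex to the site where autophagosomes form, UVRAG replaces ATG14 in a second complex that acts on endosomes, and AMBRA1 binds Beclin 1. BECN1, ATG14 and AMBRA1 rose and UVRAG fell. ATG14 (chromosome 14, 55366392 to 55411858) was at 4.66, 4.27 and 3.92 FPKM in Cont and at 12.4, 11.8 and 11.7 in Dox, with a mean 2.79-fold higher (SE 0.09 for a log2 change of 1.30, limma adjusted p = 4.63e-07). AMBRA1 (chromosome 11, 46396414 to 46594125) was at 7.03, 7.30 and 7.31 in Cont and at 16.0, 14.9 and 15.8 in Dox (log2 change 1.01, SE 0.08, limma adjusted p = 9.82e-07). In both genes the 3 libraries of a group lay close together and the groups were well apart. BECN1 rose from 23.7 ± 0.261 to 40.6 ± 3.64 FPKM (SD, n = 3; log2 change 0.75). UVRAG fell from 4.42 ± 0.829 to 2.66 ± 0.274 (log2 change -0.56, limma adjusted p = 0.00259) and had the lowest level of all members in Dox. The ratio of ATG14 to UVRAG in FPKM, looked at after the values were seen, was 1.31, 0.946 and 0.754 in the Cont libraries and 5.19, 4.0 and 4.44 in the Dox libraries. It went from about equal levels to an excess of ATG14 in every Dox library.

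PI3P effectors and lipid transfer proteins held the largest change. WIPI1 and WIPI2 bind PI3P and WIPI2 recruits ATG16L1, WDR45B and WDR45 (also named WIPI3 and WIPI4) act with the lipid transfer proteins ATG2A and ATG2B, and ATG9A is a lipid scramblase in vesicles that seed the membrane. Of these 7 genes 5 rose and 2, WDR45B and ATG9A, fell (median log2 change 1.18). WIPI1 (chromosome 17, 68420948 to 68457513) was at 21.2, 21.6 and 27.2 FPKM in Cont and at 312.1, 306.1 and 393.3 in Dox. No Dox value was near a Cont value, and the mean rose 14.4-fold (log2 change 3.80, SE 0.12, limma adjusted p = 3.67e-09). By log2 change it stood at rank 47 of the 11526 tested genes, and by level it went from rank 19 to rank 2 among the 38 members.

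WIPI2 (chromosome 7, 5190188 to 5233826) was at 19.9, 20.6 and 19.3 FPKM in Cont and at 66.4, 70.3 and 72.0 in Dox, with a mean 3.49-fold higher (SE 0.07 for a log2 change of 1.75, limma adjusted p = 1.05e-08). ATG2B (chromosome 14, 96279202 to 96363870) was the lowest member in Cont, at 3.27, 3.75 and 4.04, and was at 14.1, 13.9 and 14.6 in Dox (log2 change 1.70, SE 0.09, limma adjusted p = 8.7e-08). ATG2A (chromosome 11, 64894546 to 64917248) went from 6.58, 5.53 and 6.89 to 16.2, 16.2 and 14.4 (log2 change 1.18, SE 0.10, limma adjusted p = 1.89e-06). Both lipid transfer genes were thus higher in every Dox library than in any Cont library, ATG2B by 3.85-fold and ATG2A by 2.46-fold. WDR45 rose from 13.7 ± 0.094 to 20.7 ± 0.797 FPKM (SD, n = 3). WDR45B fell by 0.71 in log2, from 111.0 ± 4.25 to 67.6 ± 4.71 (limma adjusted p = 8.11e-06). ATG9A was at 24.0 ± 1.48 and 18.9 ± 2.37 (log2 change -0.33, limma adjusted p = 0.00932), a fall whose call ended in TPM (0.069), under quantile normalization (0.0568) and, at a limma adjusted p = 0.559, in TPM once mitochondrially encoded genes were removed.

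Reads of overlapping genes bear on some of these values, since no source used here gives the strand setting of the authors' counting. In GENCODE 29, 24.3% of the exon bases of WIPI1 also lie in exons of ARSG on the opposite strand. ARSG was low, with means of 0.418 FPKM in Cont and 2.20 in Dox. It rose by 1.17 in log2 (limma adjusted p = 4.17e-06), in the same direction as WIPI1. For ATG9A, 38.8% of exon bases are shared with the coding gene AC068946.2 on the same strand, which was not analysed here. Other members that share at least 10% of exon bases with a coding gene were SQSTM1 (MRNIP), ATG7 (VGLL4), ATG4D (KRI1), WDR45 (PRAF2) and BECN1 (CNTD1). VGLL4 rose by 2.25 in log2 and MRNIP by 1.01, against the falls of ATG7 and SQSTM1, and KRI1 fell by 0.87, against the rise of ATG4D. How much these neighbours contribute to the members' values was not tested.

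**Figure D2:**
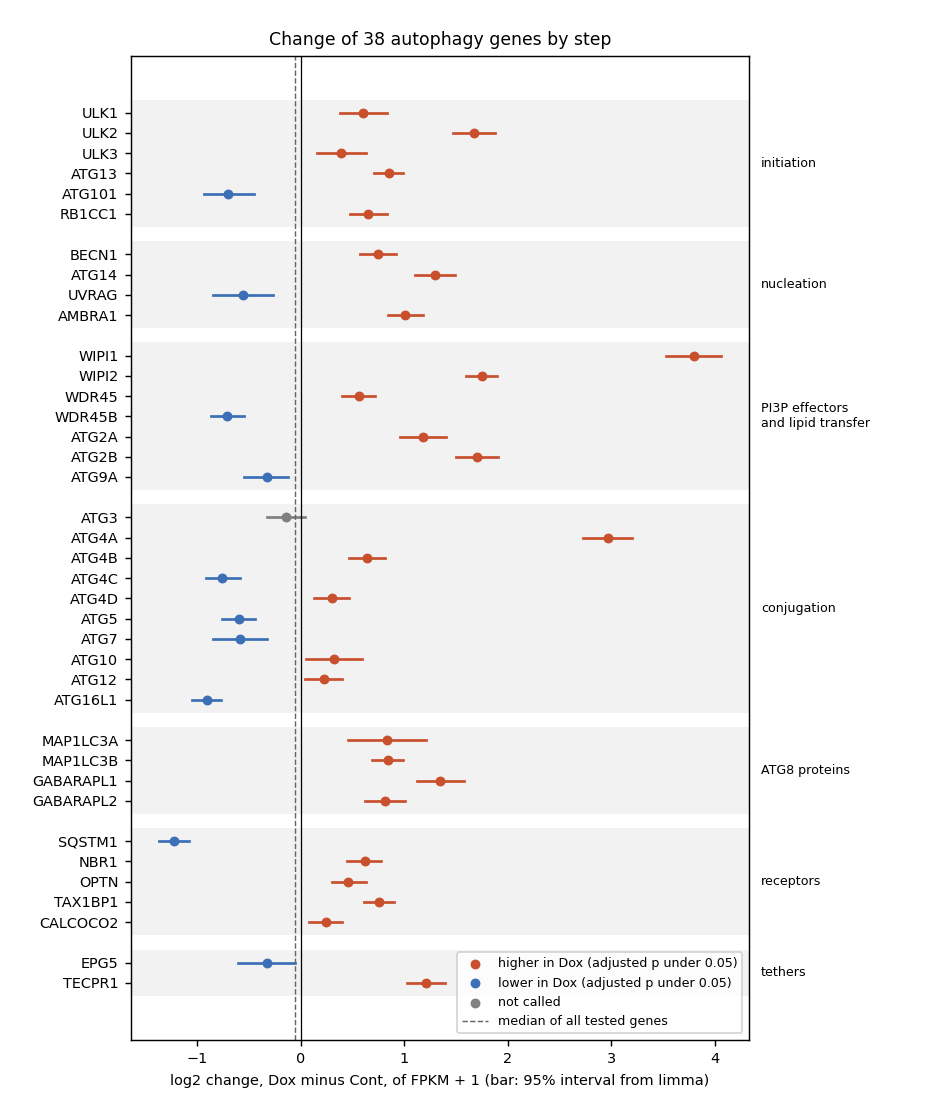
Log2 change (Dox minus Cont, of FPKM + 1) of 38 autophagy genes by step, with 95% intervals from limma (3 libraries a group), coloured by call. Points of the ATG8 proteins all lie right of 0, conjugation genes lie on both sides, and the dashed line marks the median of all tested genes at -0.06. The falls of ATG9A and EPG5 lose their call under 3 and 4 of the 4 other scalings, and ATG3 changes sign under 2 of them.

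Conjugation genes were divided. ATG7 is the E1-like enzyme of both systems, ATG3 and ATG10 are the E2-like enzymes, ATG12, ATG5 and ATG16L1 form the complex that directs lipidation, and the ATG4 proteases cut ATG8 proteins before lipidation and release them afterwards. Of the 10 genes 5 rose, 4 fell and ATG3 was not called (median log2 change 0.04). Without Cont replicate 3, Dox replicate 1 or Dox replicate 2, 3 rises were called. The 2 that were lost were those of ATG10 and ATG12.

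ATG4A (chromosome X, 108091668 to 108154671) was at 6.51, 6.26 and 7.92 FPKM in Cont and at 64.2, 53.6 and 64.2 in Dox. That is an 8.80-fold rise of the mean, with no overlap between groups (log2 change 2.97, SE 0.10, limma adjusted p = 6.65e-09), and rank 124 among all tested genes. Its relative ATG4B, the most active of the 4 proteases on ATG8 proteins, rose less, from 23.5 ± 1.08 to 37.3 ± 2.38 FPKM (SD, n = 3), and ATG4D rose from 14.5 ± 0.703 to 18.1 ± 0.745. ATG4C fell, from 25.7, 24.4 and 27.7 FPKM to 14.9, 14.9 and 15.1 (log2 change -0.76, limma adjusted p = 6.68e-06).

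Of the 3 subunit genes of the complex that directs lipidation, 2 were lower in transcript level. ATG16L1, which places the complex on the membrane, was at 154.1, 159.9 and 151.9 FPKM in Cont and at 78.3, 82.9 and 84.8 in Dox (log2 change -0.91, SE 0.06, limma adjusted p = 5.03e-07). ATG5 fell by 0.60 in log2, from 21.0 ± 0.83 to 13.5 ± 0.379 (SD, n = 3, limma adjusted p = 2.84e-05). ATG12, which is joined to ATG5, was at 12.5, 11.9 and 11.2 FPKM in Cont and 14.7, 13.5 and 13.5 in Dox, a small rise (log2 change 0.22, limma adjusted p = 0.0298) that missed the threshold without any 1 of Cont replicates 2 and 3 and Dox replicates 1 and 2. The ATG12 and ATG16L1 changes were in opposite directions, and their ratio went from 0.0762 ± 0.00402 to 0.170 ± 0.0156. ATG7 was at 28.3, 28.7 and 21.6 FPKM in Cont and 18.6, 17.0 and 15.4 in Dox, a fall (log2 change -0.59, limma adjusted p = 0.001). ATG10 rose from 5.88 ± 1.11 to 7.50 ± 0.184 (limma adjusted p = 0.0336) and missed the threshold without Cont replicate 3 (limma adjusted p = 0.0872) or without any 1 Dox library (0.0589 to 0.0829). ATG3 was at 38.8, 41.1 and 39.4 FPKM in Cont and 36.5, 32.3 and 39.2 in Dox (limma adjusted p = 0.129), with a 95% interval of -0.33 to 0.04 for its log2 change. Without Dox replicate 3 it was called lower at -0.21 (limma adjusted p = 0.0364), and it turned to 0.13 in TPM without mitochondrially encoded genes and to 0.00682 under quantile normalization.

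All 4 measured ATG8 members rose, and they did so under each of the 5 scalings. ATG8 proteins are the ubiquitin-like tags that mark the autophagosome membrane and hold cargo receptors. GABARAPL1 (chromosome 12, 10212458 to 10223130) was at 47.2, 49.7 and 51.8 FPKM in Cont and at 117.1, 117.9 and 151.3 in Dox. Dox replicate 3 was the highest, and the lowest Dox value was still above every Cont value (2.60-fold, log2 change 1.35, SE 0.10, limma adjusted p = 9.17e-07). GABARAPL2 rose by 0.81 in log2, from 77.4 ± 6.05 to 136.7 ± 12.6 (SD, n = 3; limma adjusted p = 1.29e-05). MAP1LC3B, the LC3 form most used as an autophagosome marker, rose by 0.84 in log2, from 45.2 ± 1.58 to 81.4 ± 4.02 (limma adjusted p = 1.48e-06). MAP1LC3A was lower and more variable, at 7.02, 6.84 and 4.83 in Cont and 10.8, 15.1 and 9.88 in Dox (log2 change 0.83, limma adjusted p = 0.00109). The sum of the 4 genes was 178.4 ± 3.86 FPKM in Cont and 358.8 ± 8.36 in Dox. MAP1LC3B and GABARAPL1 have near-identical relatives (MAP1LC3B2 and GABARAPL3), and no source used here says how shared reads were assigned, so their values are uncertain to that extent. MAP1LC3B2 was at 12.3, 13.6 and 10.0 FPKM in Cont and 25.0, 14.3 and 21.1 in Dox, and GABARAPL3 was not analysed here.

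Cargo receptors join ubiquitinated cargo to ATG8 proteins. NBR1, OPTN, TAX1BP1 and CALCOCO2 (NDP52) rose, and SQSTM1, the gene of p62, fell. SQSTM1 (chromosome 5, 179806398 to 179838078) was at 226.9, 237.2 and 214.1 FPKM in Cont and at 92.7, 96.8 and 98.6 in Dox. Every Dox value was below every Cont value, and the mean was 2.35-fold lower (log2 change -1.23, SE 0.07, limma adjusted p = 8.97e-08), which was the largest fall among the members under each of the 5 scalings. TAX1BP1 was the most abundant member in both groups, at 255.3, 275.2 and 262.2 FPKM in Cont and at 443.4, 431.9 and 466.9 in Dox (log2 change 0.76, limma adjusted p = 2.61e-06). TAX1BP1 and SQSTM1 were near each other in Cont, with a ratio of 1.17 ± 0.0504, and the ratio was 4.66 ± 0.175 in Dox. NBR1 rose from 36.8 ± 1.52 to 57.1 ± 3.77 FPKM and OPTN from 85.4 ± 0.949 to 118.5 ± 9.58 (SD, n = 3). CALCOCO2 changed least, from 31.2 ± 1.83 to 37.0 ± 1.62 (log2 change 0.24, limma adjusted p = 0.0116; 0.0597 without Cont replicate 1).

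The 2 tethers moved apart. TECPR1, which links the autophagosome to the lysosome (chromosome 7, 98214624 to 98252251), was at 4.84, 5.23 and 4.71 FPKM in Cont and at 12.5, 13.1 and 12.5 in Dox (2.58-fold, log2 change 1.21, SE 0.08, limma adjusted p = 4.27e-07). EPG5, a fusion tether, was at 11.4, 11.8 and 16.2 in Cont and 9.53, 10.4 and 10.4 in Dox (log2 change -0.33, limma adjusted p = 0.0302). Its call ended under all 4 other scalings and without Cont replicate 3, whose value was the highest (log2 change -0.18, limma adjusted p = 0.0669), or without any 1 Dox library (0.0541 to 0.0884).

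Within families the make-up of the transcripts shifted, and such shares do not depend on how a library is scaled by a common factor. WIPI1 made up 13.9 ± 2.11% of the summed FPKM of the 4 WIPI genes in Cont and 68.0 ± 2.04% in Dox (SD, n = 3), while WDR45B went from 66.0 ± 2.02% to 13.7 ± 0.56%. The summed level of the 4 genes was 168.0 ± 1.37 FPKM in Cont and 495.0 ± 56.0 in Dox. In the ATG4 family ATG4A went from 9.71 ± 1.05% to 46.2 ± 3.07% and ATG4C from 36.6 ± 1.72% to 11.4 ± 0.455%. The most abundant ATG4 transcript was thus ATG4C in 2 Cont libraries, ATG4B in Cont replicate 2, and ATG4A in every Dox library. ULK2 held 53.2 ± 4.36% of the ULK kinase sum in Cont and 71.9 ± 2.28% in Dox. The 4 measured ATG8 members kept their make-up more nearly, with GABARAPL1 at 26.3%, 27.4% and 29.8% in Cont and at 33.5%, 32.6% and 41.4% in Dox. MAP1LC3A was at 2.70% to 4.19% over all 6 libraries. MAP1LC3B2 and MAP1LC3C, which also had a row, were left out of this sum. Shares of 3 against 3 libraries cannot reach an exact permutation p below 0.1, and none was tested.

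**Figure D3:**
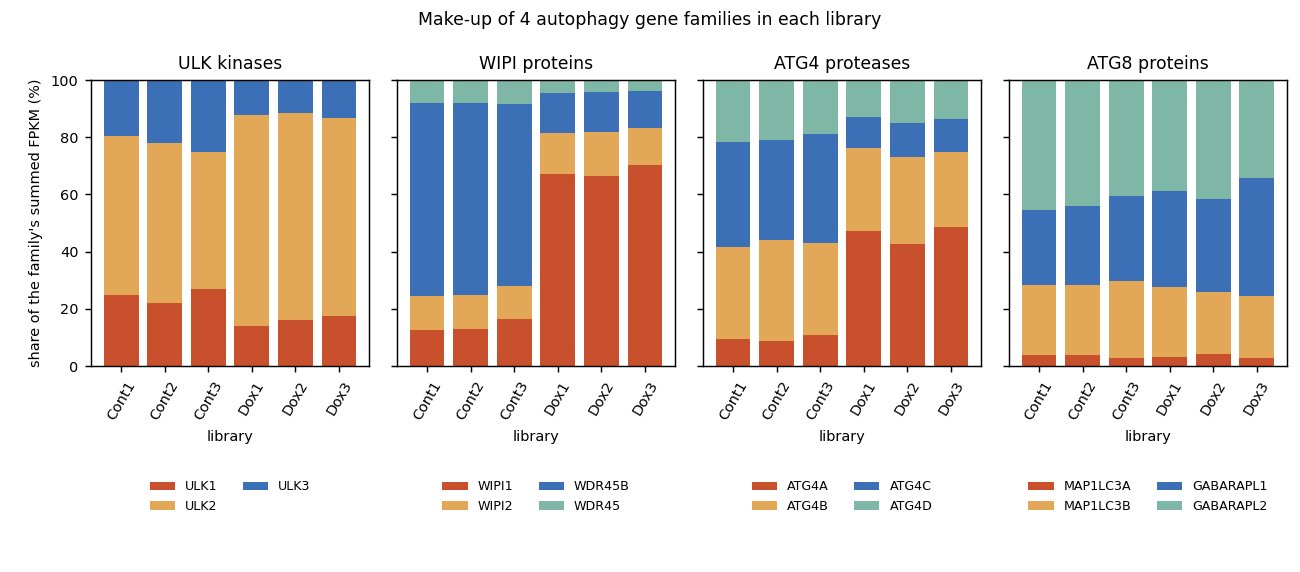
Share (%) of each gene in the summed FPKM of its family, as stacked bars for each of the 6 libraries. Families are the ULK kinases, WIPI proteins, ATG4 proteases and measured ATG8 members. WIPI1 goes from 13.9% to 68.0% and ATG4A from 9.71% to 46.2% of their families on average, while the ATG8 bars differ less between groups.

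By step, the summed level of the conjugation genes was 323.3 to 338.7 FPKM in Cont and 292.0 to 305.5 in Dox. That fall depended on the scaling and on 1 gene, in alternatives chosen after the data were seen. In TPM the sums overlapped, at 503.9 to 507.8 in Cont and 483.9 to 509.0 in Dox, and in TPM without mitochondrially encoded genes they were higher in Dox, at 519.5 to 532.6 and 567.3 to 589.3. Without ATG16L1 the other 9 genes summed to 171.4 to 178.9 FPKM in Cont and 209.1 to 227.0 in Dox. Those 9 include ATG4A, which went from 6.9 ± 0.897 to 60.7 ± 6.1 FPKM (SD, n = 3), while ATG4C, ATG5 and ATG7 fell. A sum without ATG4A as well was not taken, so the sum of 9 genes does not show a broad rise. The sum of the PI3P effectors and lipid transfer genes was 201.0 to 203.0 in Cont and 509.5 to 610.1 in Dox, most of it WIPI1. Median log2 changes were 0.88 for nucleation, 0.83 for the ATG8 genes and 0.46 for the receptors, beside 1.18 for the PI3P effectors and 0.04 for conjugation. The order of the steps by count was flat at the top: 5 of 6, 3 of 4, 5 of 7, 4 of 4 and 4 of 5 genes rose in initiation, nucleation, PI3P effectors, ATG8 proteins and receptors, against 5 of 10 in conjugation. Differences between steps were not tested. Replicates of the members were close, with a median coefficient of variation of 5.47% in Cont and 5.00% in Dox, and the widest spread was that of EPG5 in Cont (20.2%) and of MAP1LC3A in Dox (23.5%).

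The scaling of the libraries moved the members' changes, and quantile normalization did not move them all one way. Under it TAX1BP1 went from 0.76 to 1.10 and OPTN from 0.46 to 0.71 in log2, while UVRAG went from -0.56 to -0.74 and ATG14 from 1.30 to 1.26. Once mitochondrially encoded genes were removed from TPM, all tested genes had a median change of 0.19 in place of -0.06, and the share of rises among all calls was 59.0% in place of 46.7%. The median of the members was then 0.90 in place of 0.61, and 27 rose and 8 fell. The members' median was 0.73 in TPM. It was 0.72 after quantile normalization and 0.68 under median-of-ratios scaling. The 27 rises were called under each of these scalings, and the 8 falls of SQSTM1, ATG16L1, ATG4C, WDR45B, ATG101, ATG5, ATG7 and UVRAG were too.

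**Figure D4:**
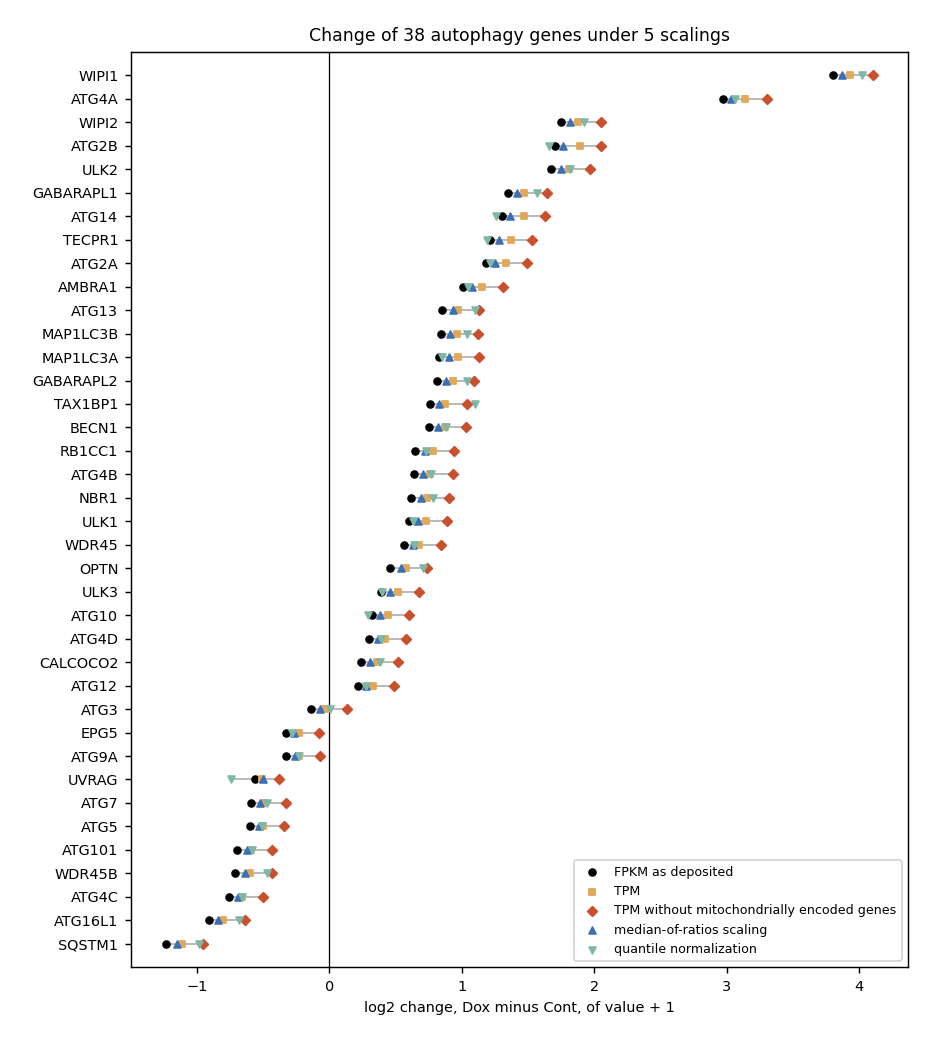
Log2 change (Dox minus Cont, of value + 1) of 38 autophagy genes under 5 scalings of the libraries, with one symbol per scaling. WIPI1 (3.80 as deposited) and ATG4A (2.97) stay at the top and SQSTM1 (-1.23) at the bottom, while ATG3, EPG5 and ATG9A lie near 0, and ATG3 lies on both sides of it.

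Other genes of the pathway, taken from 5 lists by role, moved in both directions as well: 30 of the 45 tested rose, 9 fell and 6 were not called. The share called was 86.7%, near the 80.4% of all tested genes, with 66.7% higher (37.6% of all tested genes) and 9 of 45 lower (42.8%). Of 7 tested genes of the class III PI3-kinase and its regulators 6 rose and none fell. ZFYVE1 (DFCP1), a PI3P binding protein that marks the site of autophagosome formation, rose by 2.93 in log2, from 6.82 ± 0.445 to 58.5 ± 2.97 FPKM (SD, n = 3, limma adjusted p = 1.67e-09). PIK3C3 (VPS34), the catalytic subunit that makes PI3P, rose from 5.24 ± 0.49 to 18.0 ± 0.873, and SH3GLB1, a membrane-curving partner of the complex, from 25.8 ± 0.281 to 70.0 ± 2.80. Among the genes of PI3P binding proteins, ZFYVE1, WIPI1 and WIPI2 were higher in every Dox library, and WDR45B, the most abundant WIPI gene in Cont, was lower in every one.

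Of 15 cargo and organelle receptors outside the members 11 rose and 3 fell. The largest fall was that of PHB2, from 255.1 ± 18.6 to 103.9 ± 8.9 FPKM (log2 change -1.29, limma adjusted p = 3.34e-07). On the log2(FPKM + 1) scale the largest rises were those of RTN3, CCPG1 and RETREG1, each a receptor for autophagy of the endoplasmic reticulum: RTN3 from 96.0 ± 4.47 to 569.0 ± 26.3 FPKM (SD, n = 3; log2 change 2.55), CCPG1 from 14.2 ± 3.29 to 78.4 ± 5.03 (2.40) and RETREG1 (FAM134B) from 11.5 ± 1.63 to 60.8 ± 0.537 (2.32). Other receptors of this kind in the list did not share that size, since SEC62 rose by 0.32 and TEX264 fell by 0.44 (limma adjusted p = 0.000993). By the fold of the means PINK1, a kinase that marks damaged mitochondria, stood first at 6.17-fold, against 5.93-fold for RTN3. The receptor genes named here were picked after their values were seen. Of 13 tested fusion genes 8 rose and 3 fell, all by less than 1 in log2, with STX7 at 0.89, the autophagosomal SNARE gene STX17 at 0.74 and the HOPS subunit gene VPS39 at 0.68. In TPM without mitochondrially encoded genes none of the fusion genes and 1 of the receptors fell.

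Of 6 membrane source genes 2 rose and 3 fell, and 1 fell in TPM without mitochondrially encoded genes. The trafficking gene TRAPPC8 rose by 1.61 and TBC1D14, which regulates vesicles that feed the autophagosome, fell by 1.10 in log2. VMP1, a scramblase that acts with ATG2 proteins, rose by 0.81, from 1219.7 ± 101.7 to 2140.7 ± 45.0 FPKM (SD, n = 3). Among 4 further paralogs ATG9B rose by 1.54, from 0.314, 0.498 and 0.653 FPKM to 3.31, 4.15 and 2.60, while its paralog ATG9A fell. MAP1LC3C rose by 1.41, from 0.0461, 0.445 and 0.193 FPKM to 2.61, 1.43 and 2.82, and MAP1LC3B2 by 0.68. Both ATG9B and MAP1LC3C passed the filter only through the Dox libraries, and the size of their change depended on the pseudocount, at 2.57 and 3.01 with a pseudocount of 0.1 and at 2.82 and 3.79 on the deposited log2 values. Their levels stayed below the main members of their families.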

How the data were processed

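Poly(A) RNA of 3 Cont and 3 Dox libraries of SNU449 cells was measured. The authors deposited 1 table of 13117 genes as log2 FPKM. A small offset before the logarithm is read from the values and stated nowhere in the labels. FastQC 0.11.7 and GRCh38 are named per the submitters' processing notes. The aligner, counter, annotation and gene filter are not given in the sources used here. Columns were matched by title, since 1 label names another Cont column. The unit found, log2, was turned into FPKM as 2 to the power of the value. Absolute depth is unknown. Relative depth was estimated from 307 genes whose lowest value at least 2 libraries shared, with the offset of each library chosen so that low values came closest to whole reads.

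The filter asked for FPKM 1 or more in 3 or more libraries, which left 11526 genes and removed 1591. The test was limma (version 3.58.1, R version 4.3.3), two-sided, with a mean-variance trend, a pseudocount of 1 before the logarithm and Benjamini-Hochberg adjustment. The fit was run on simulated data with independent noise and known changes in a small part of the genes. In these data 80.4% of all tested genes were called, so that run does not show how well the fit does here. Gene positions come from GENCODE 29 and promoters from RefSeq. All members were accounted for, and members changed by at least 1 in log2 were given by library. Per other list up to 3 called genes with the largest change were named, with further receptor genes picked after their values were seen. The members, lists and tests were chosen with earlier results of these data known. Alternatives were other pseudocounts, filters and scalings, no trend, a replicate block and leaving out each library.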

Additional observations from a re-analysis of the deposited data

How the results depend on the processing

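Over the 16 alternatives, 32 of the 38 members kept their direction and call wherever they were tested. The other 6 (ATG3, ATG9A, ATG10, ATG12, CALCOCO2 and EPG5) did not. Members called higher numbered 27 in each alternative with all libraries and 25 to 26 when 1 library was left out, and members called lower 8 to 10 and 9 to 10. ATG3 reversed to 0.13 in TPM without mitochondrially encoded genes and to 0.00682 under quantile normalization. Of the PI3P effectors and lipid transfer genes, 1 fell in TPM, in TPM without mitochondrially encoded genes and under quantile normalization, in place of 2. No tether fell (0) in TPM, in TPM without mitochondrially encoded genes, with median-of-ratios scaling or under quantile normalization, and 0 to 1 did when 1 library was left out. Conjugation genes called higher numbered 3 to 5 when 1 library was left out. With the filter at FPKM 5, UVRAG was not tested and 0 nucleation genes fell. For all genes, 3318 to 5477 rises and 3810 to 5062 falls were called over the alternatives with all libraries, against 4329 and 4936. Same-numbered libraries correlated at 0.0371, -0.00483 and 0.0793 in their deviations from the group means. Cont replicate 2 correlated best with Dox replicate 1, at 0.0925. Such deviations from means of 3 libraries cannot exclude a pairing. The Cont numbers are also uncertain, since 1 label names another Cont column. With the replicate number as a block, 27 members rose and 10 fell, as without it. Counting error of low members is limited by depth, which is known only in relative terms. The alternatives for the other pathway lists were added after the data were seen.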
